A study of Homo sapiens with 12 samples.

Results

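Described here are 33 genes of protein folding and quality control in the endoplasmic reticulum (ER), chosen by gene symbol and read across the 4 groups of a study of mantle cell lymphoma cells. They comprise 3 stress sensors, 13 chaperones and other folding factors, 5 protein disulfide isomerases, 9 genes of ER-associated degradation (ERAD), and 3 genes of translocation and export. All 33 had a row among the 13820 genes in the count table, and all 33 were among the 12602 genes that passed a filter on low counts.

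The cells were Z-138, an established human line from a mantle cell lymphoma. The first group expressed an shRNA against SMARCA4, a catalytic subunit of SWI/SNF, which remodels chromatin, and was exposed to 3 µM ibrutinib (a BTK inhibitor) together with 3 µM venetoclax (a BCL2 inhibitor). The second group expressed a control shRNA under the same pair of drugs, the third the SMARCA4 shRNA in DMSO, the solvent, and the fourth the control shRNA in DMSO. Each group held 3 libraries, and all 4 groups were grown in doxycycline, so no group without it was measured. Neither drug was given alone. The sources used here do not give the length of exposure, the number of shRNA sequences or whether replicates were separate cultures. The p-values therefore measure the spread between these libraries, which may be technical, and the loss of SMARCA4 and any other effect of the construct cannot be told apart.

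Secreted and membrane proteins enter the ER through the SEC61 channel and fold there with the help of chaperones, among them BiP, the product of HSPA5. When unfolded proteins accumulate, the sensors ATF6, IRE1 (gene ERN1) and PERK (gene EIF2AK3) start the unfolded protein response (UPR). ATF6 and the spliced form of XBP1 then induce chaperone and ERAD genes through short promoter elements, while PERK slows translation and favours synthesis of ATF4. Proteins that fail to fold are recognised, moved back to the cytosol and degraded by ERAD, and B-lineage cells that secrete antibody depend on this machinery.

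The elements through which these genes are known to be induced are shown for 4 members whose drug response is described below. RefSeq promoter windows of the GRCh38.p14 build, from 250 bases before to 50 bases after the annotated start, were at hand for 30 of the 33 genes, and PDIA3, DERL1 and SEC24D were not matched. Each window is printed 5′ to 3′ in the direction of the gene, and capitals mark the ER stress response element (ERSE: CCAAT, 9 bases of any kind, CCACG) or ERSE-II (ATTGG, 1 base of any kind, CCACG) on either strand. An element on the opposite strand therefore reads as CGTGG first.
HSPA5 (chr9:125241294-125241593, minus strand): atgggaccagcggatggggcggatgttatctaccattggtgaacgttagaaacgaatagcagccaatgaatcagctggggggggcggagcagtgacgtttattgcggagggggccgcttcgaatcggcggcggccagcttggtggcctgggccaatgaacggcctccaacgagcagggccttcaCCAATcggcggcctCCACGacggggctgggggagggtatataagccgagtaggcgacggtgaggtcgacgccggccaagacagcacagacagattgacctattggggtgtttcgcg
CALR (chr19:12938359-12938658, plus strand): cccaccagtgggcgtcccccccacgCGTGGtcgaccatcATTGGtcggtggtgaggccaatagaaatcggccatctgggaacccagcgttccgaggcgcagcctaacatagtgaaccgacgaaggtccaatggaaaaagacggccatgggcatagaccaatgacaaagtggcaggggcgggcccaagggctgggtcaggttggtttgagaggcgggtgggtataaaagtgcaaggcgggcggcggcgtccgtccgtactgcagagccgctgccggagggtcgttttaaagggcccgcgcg
SDF2L1 (chr22:21642052-21642351, plus strand): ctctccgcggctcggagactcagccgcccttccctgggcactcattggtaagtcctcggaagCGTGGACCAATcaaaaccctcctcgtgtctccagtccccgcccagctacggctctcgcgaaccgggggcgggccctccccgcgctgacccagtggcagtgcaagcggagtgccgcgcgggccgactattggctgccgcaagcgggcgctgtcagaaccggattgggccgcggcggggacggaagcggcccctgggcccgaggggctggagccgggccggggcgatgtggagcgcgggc
HERPUD1 (chr16:56931892-56932191, plus strand): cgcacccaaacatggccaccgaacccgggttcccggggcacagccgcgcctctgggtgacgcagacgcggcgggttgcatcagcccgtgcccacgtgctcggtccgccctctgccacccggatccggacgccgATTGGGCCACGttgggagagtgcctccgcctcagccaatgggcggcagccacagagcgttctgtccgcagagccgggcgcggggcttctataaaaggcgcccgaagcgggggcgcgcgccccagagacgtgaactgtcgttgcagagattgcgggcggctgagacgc
Only exact matches were searched for and put in capitals. The HSPA5 element so marked lay 66 to 48 bases upstream of the start. That of CALR lay 225 to 207 bases upstream, that of SDF2L1 188 to 178 bases and that of HERPUD1 117 to 107 bases.

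The exact ERSE was present in 6 of the 30 members with a window, against 25 of the 27305 genes with a window in the table (0.0916%). Besides HSPA5 and CALR these were HSP90B1, which had 2, CANX, CRELD2 and PDIA6. Their sites are set out below, read in the direction of the element.
HSP90B1, first site: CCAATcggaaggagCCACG
HSP90B1, second site: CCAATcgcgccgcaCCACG
CANX: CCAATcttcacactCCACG
CRELD2: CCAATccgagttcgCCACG
PDIA6: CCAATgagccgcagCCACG
HYOU1, ERSE-II: ATTGGACCACG
The ERSE-II was present in HERPUD1, SDF2L1 and HYOU1, against 19 of the 27305 genes (0.0696%). The letters TGACGTGG, the core of the UPR element bound by XBP1, were present in DNAJC10 and in HYOU1, where they overlapped the upstream ERSE-II, against 253 genes (0.927%). MANF and PDIA4, whose values are described next, held none of these 3 strings in the window searched. The counts over all genes include the members. As these genes are known to be induced through such elements, the members' shares are not independent of how the genes were chosen. A match is a description of the letters and was not tested for binding.

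Library totals ran from 7279503 to 22528537 counts, and the deepest library was replicate 3 of the knockdown cells in DMSO. Single-gene values are given as counts scaled to 1000000 per library (CPM), with TMM scaling factors. SMARCA4 averaged 175 ± 8.66 CPM in knockdown cells and 610 ± 28.2 CPM in control cells under drug, and 170 ± 9.67 CPM in knockdown cells and 577 ± 21.6 CPM in control cells in DMSO (SD, n = 3 each). The count column taken as replicate 1 of the control cells under drug names no treatment and was assigned because no other column was left for that sample, so results are also given without it. All 7 markers of B cells and mantle cell lymphoma had a row, CCND1 among them at 3290 to 4889 CPM over the 12 libraries, while CD3D, CD3E and all 3 myeloid markers had none. Libraries differed in the share of counts from 18S and 28S ribosomal RNA, which was 8.36 ± 1.01% in knockdown cells and 10.6 ± 0.330% in control cells under drug, and 10.5 ± 0.525% in knockdown cells and 9.15 ± 0.308% in control cells in DMSO (SD, n = 3 each). The members' counts per library ran from 17 (EDEM1) to 16776 (HSPA5), and 23 of the 33 had at least 100 counts in every library.

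The first comparison asked what ibrutinib plus venetoclax did to these genes in control cells. Of the 33 members, 5 rose and 0 fell, by edgeR's quasi-likelihood test at an adjusted p of 0.05 over all 12602 genes. The share called among all genes was 1.29%, made up of 0.738% higher and 0.555% lower. The 5 were the chaperones and folding factors HSPA5, MANF, SDF2L1 and CALR and the isomerase PDIA4, with changes of 1.17-fold to 1.26-fold. The log2 fold change was positive in 25 of the 33 members, with a median of 0.14, against a median of 0.0017 over all genes. In 10 members all 3 libraries under drug lay above all 3 in DMSO, and in 0 all lay below. The share of all genes with no overlap was 14.6%, with 7.38% higher and 7.18% lower. In bulk RNA such a change in CPM cannot be told apart from a change in the mix of cells or in the RNA of each cell.

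HSPA5, which encodes BiP, the main Hsp70 chaperone of the ER and the repressor of all 3 sensors, stood at 886, 845 and 851 CPM in control cells under drug, against 753, 712 and 739 CPM in DMSO. All 3 libraries under drug were above all 3 in DMSO. The log2 fold change was 0.23 ± 0.05 (SE, adjusted p = 0.00678, edgeR). Its call was lost without replicate 1 of the control cells under drug (adjusted p = 0.0973) and without replicate 2 in DMSO (adjusted p = 0.0846).

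MANF, a secreted ER protein that stabilises BiP bound to its clients, stood at 229, 199 and 230 CPM in control cells under drug, against 167, 180 and 190 CPM in DMSO. The groups did not overlap, although replicate 2 under drug was close to the highest DMSO library. MANF rose by 0.29 ± 0.07 log2 units (SE, adjusted p = 0.0129, edgeR). Its call was lost without replicate 1 or 3 under drug (adjusted p = 0.129 and 0.0921, edgeR) and without replicate 1 or 2 in DMSO (adjusted p = 0.137 and 0.0638, edgeR).

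PDIA4 (ERp72), an isomerase that forms and rearranges disulfide bonds, stood at 229, 201 and 204 CPM in control cells under drug, against 167, 169 and 177 CPM in DMSO. Every library under drug was above every DMSO library. PDIA4 rose by 0.31 ± 0.07 log2 units (SE, adjusted p = 0.0184, edgeR). The call was lost without replicate 1 under drug and without replicate 1 or 2 in DMSO (adjusted p = 0.229, 0.101 and 0.107, edgeR).

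SDF2L1, a partner of ER-resident DnaJ proteins in the BiP cycle, stood at 137.7, 134 and 149 CPM in control cells under drug, against 119, 115 and 121 CPM in DMSO, again without overlap. SDF2L1 rose by 0.24 ± 0.06 log2 units (SE, adjusted p = 0.0315, edgeR). CALR, the lectin chaperone calreticulin, stood at 54.2, 58.9 and 57.7 CPM in control cells under drug, against 43.5, 43.8 and 48.3 CPM in DMSO. CALR rose by 0.33 ± 0.08 log2 units with no overlap (SE, adjusted p = 0.0416, edgeR). These were the weaker calls. That of SDF2L1 was lost without replicate 1 or 3 under drug (adjusted p = 0.0972 and 0.204, edgeR), and without replicate 1, 2 or 3 in DMSO (adjusted p = 0.102, 0.184 and 0.0644, edgeR). CALR lost its call without replicate 1, 2 or 3 under drug (adjusted p = 0.0643, 0.184 and 0.122, edgeR) or replicate 1 or 2 in DMSO (adjusted p = 0.204 and 0.193, edgeR). It also lost it without replicate 2 of the knockdown cells in DMSO (adjusted p = 0.0541, edgeR), a library outside the comparison, and with the DESeq2 Wald test (adjusted p = 0.0569).

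**Figure D1:**
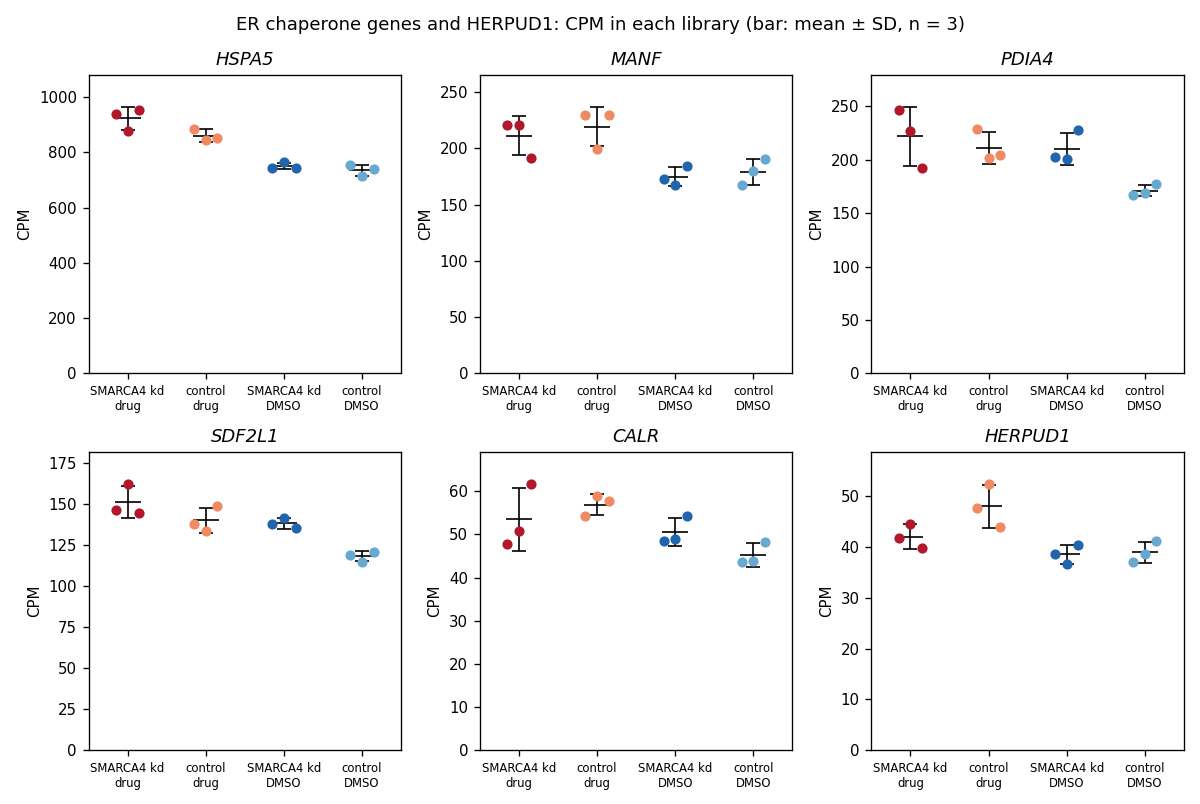
CPM of 6 genes in the 12 libraries, with 1 point for each library and bars for the mean ± SD of 3. HSPA5, MANF and SDF2L1 libraries under drug lie above the DMSO libraries of the same shRNA in both pairs, PDIA4, CALR and HERPUD1 libraries do so in control cells and overlap in knockdown cells, and HERPUD1 is shown as a gene that missed the threshold.

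The count of 5 members in control cells depended on single libraries. It was 0 without replicate 1 of the control cells under drug, 0 without replicate 2 in DMSO and 1, HSPA5, without replicate 1 in DMSO. With library totals in place of scaling factors it was 3, without SDF2L1 (adjusted p = 0.0596, edgeR) and CALR (adjusted p = 0.0685, edgeR), and the all-gene calls were then 74 higher and 85 lower, against 93 higher and 70 lower with scaling factors. The ribosomal RNA share was lower under drug than in DMSO in knockdown cells and higher in control cells. With the ribosomal RNA rows taken out, the count of members called was 5 with drug in control cells, 2 with drug in knockdown cells, 10 with knockdown under drug and 13 with knockdown in DMSO.

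The remaining chaperones had no call in control cells. HSP90B1 (GRP94), the Hsp90 of the ER, stood at 594, 571 and 538 CPM under drug, against 477, 497 and 572 CPM in DMSO, and the groups overlapped through replicate 3 in DMSO. Its log2 fold change was 0.14 ± 0.06 (SE, adjusted p = 0.416, edgeR). DNAJB9 (ERdj4), a DnaJ co-chaperone of BiP, stood at 10.6, 9.30 and 7.13 CPM under drug, against 6.30, 6.16 and 6.09 CPM in DMSO. Its libraries did not overlap, and its log2 fold change of 0.54 ± 0.17 did not pass (SE, adjusted p = 0.128, edgeR), except without replicate 3 under drug (adjusted p = 0.0399, edgeR). HYOU1 (GRP170), a nucleotide exchange factor of BiP, had a log2 fold change of 0.28 ± 0.17 with no overlap. CANX, DNAJB11, DNAJC3, DNAJC10, CRELD2 and HSPA13 lay between -0.05 and 0.04.

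None of the 9 ERAD genes passed in control cells, although 8 of the 9 had a positive log2 fold change. HERPUD1, which recruits the ubiquitin ligase complex at the ER membrane, stood at 47.6, 52.4 and 43.9 CPM under drug, against 37.0, 38.6 and 41.1 CPM in DMSO. Its libraries did not overlap, and its log2 fold change of 0.30 ± 0.08 missed the threshold (SE, adjusted p = 0.0600, edgeR), except without replicate 3 under drug (adjusted p = 0.0316, edgeR). EDEM1, which trims mannose from misfolded glycoproteins, stood at 12.4, 8.65 and 8.94 CPM under drug, against 5.60, 6.64 and 7.997 CPM in DMSO. It did not overlap either and had the largest log2 fold change of the 33 in this comparison, 0.58 ± 0.22 (SE, adjusted p = 0.292, edgeR). Of the sensors, EIF2AK3 alone had no overlap, at 59.3, 57.2 and 53.8 CPM under drug against 50.4, 47.7 and 43.6 CPM in DMSO, and it did not pass (log2 fold change 0.26 ± 0.09, adjusted p = 0.171, edgeR).

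In knockdown cells the same pair of drugs was followed by a rise of 2 of the 33 members, HSPA5 and MANF, and a fall of 0. The share called among all genes was 1.29%, of which 0.738% were higher and 0.548% lower. The log2 fold change was positive in 23 members, with a median of 0.075, against 6.3e-04 over all genes. All 3 libraries under drug lay above all 3 in DMSO in 7 members and below them in 3, against 7.76% and 7.45% of all genes, or 15.2% in either direction.

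HSPA5 stood at 939, 876 and 954 CPM in knockdown cells under drug, against 744, 764 and 744 CPM in DMSO. Every library under drug was above every DMSO library by more than 100 CPM. HSPA5 rose by 0.30 ± 0.05 log2 units, or 1.23-fold (SE, adjusted p = 0.000184, edgeR), and kept its call in all 20 alternatives tried. MANF stood at 221, 221 and 192 CPM in knockdown cells under drug, against 173, 167 and 184 CPM in DMSO, where replicate 3 under drug came near the highest DMSO library. MANF rose by 0.27 ± 0.07 log2 units, or 1.20-fold (SE, adjusted p = 0.0282, edgeR). Its call was lost without replicate 1 or 2 under drug (adjusted p = 0.206 and 0.118, edgeR) and without replicate 1 or 2 in DMSO (adjusted p = 0.126 and 0.169, edgeR), which leaves HSPA5 as the 1 member called in each of those 4 fits.

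The other 3 genes that rose in control cells had smaller log2 fold changes in knockdown cells and did not pass there. SDF2L1 stood at 146, 162 and 145 CPM in knockdown cells under drug, against 137.6, 142 and 135 CPM in DMSO, without overlap, and showed a log2 fold change of 0.13 ± 0.06, not past the threshold (SE, adjusted p = 0.415, edgeR). PDIA4 stood at 247, 227 and 192 CPM under drug, against 203, 201 and 228 CPM in DMSO, and CALR at 47.8, 50.8 and 61.8 CPM under drug, against 48.6, 49.0 and 54.2 CPM in DMSO. Both genes overlapped between the groups, PDIA4 through replicate 3, which was the lowest library under drug and the highest in DMSO. Their log2 fold changes were 0.07 ± 0.07 for PDIA4 and 0.07 ± 0.08 for CALR (SE). HERPUD1 overlapped as well, at 41.7, 44.5 and 39.7 CPM under drug against 38.6, 36.6 and 40.4 CPM in DMSO. HSP90B1 overlapped, at 567, 510 and 497 CPM under drug against 480, 479 and 514 CPM in DMSO.

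OS9, a lectin that hands misfolded glycoproteins to the ERAD ligase, was among the 3 members whose libraries all lay lower under drug in knockdown cells, with ATF6 and DNAJC10. It stood at 8.40, 7.04 and 8.34 CPM in knockdown cells under drug, against 11.3, 11.3 and 10.2 CPM in DMSO, and had a log2 fold change of -0.44 ± 0.14 that did not pass (SE, adjusted p = 0.138, edgeR). In control cells OS9 stood at 12.7, 14.98 and 12.8 CPM under drug, against 12.9, 10.99 and 11.5 CPM in DMSO, with a log2 fold change of 0.19 ± 0.13 (SE).

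Whether the drug response differed between knockdown and control cells was tested as an interaction, the log2 fold change with drug in knockdown cells less that in control cells. It was past the threshold for 0 of the 33 members, against 0.0238% of all genes (0.00794% higher and 0.0159% lower), and DESeq2 also called 0 members. At an unadjusted p under 0.05 there were 4 members, against 674 of all 12602 genes. These were OS9 at -0.63 (approximate 95% interval -1.02 to -0.24, adjusted p = 0.569, edgeR), CALR at -0.26, EIF2AK3 at -0.24 and PDIA4 at -0.23. The difference was negative in 23 members and positive in 10, against 6431 and 6171 of all genes. Its median was -0.045 in the members and -0.0047 over all genes. With library totals these medians were 0.016 and 0.056. For HSPA5 the difference was 0.07, with an interval of -0.07 to 0.21, and for MANF -0.03, with an interval of -0.22 to 0.16. SDF2L1 had -0.11, with an interval of -0.28 to 0.06. The interval was -0.44 to -0.03 for PDIA4 and -0.50 to -0.02 for CALR. For 24 of the 33 members the interval lay within 0.5 on either side of 0, while that of SYVN1, the ERAD ubiquitin ligase, whose counts were among the lowest, reached 0.69 to either side of its estimate.

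**Figure D2:**
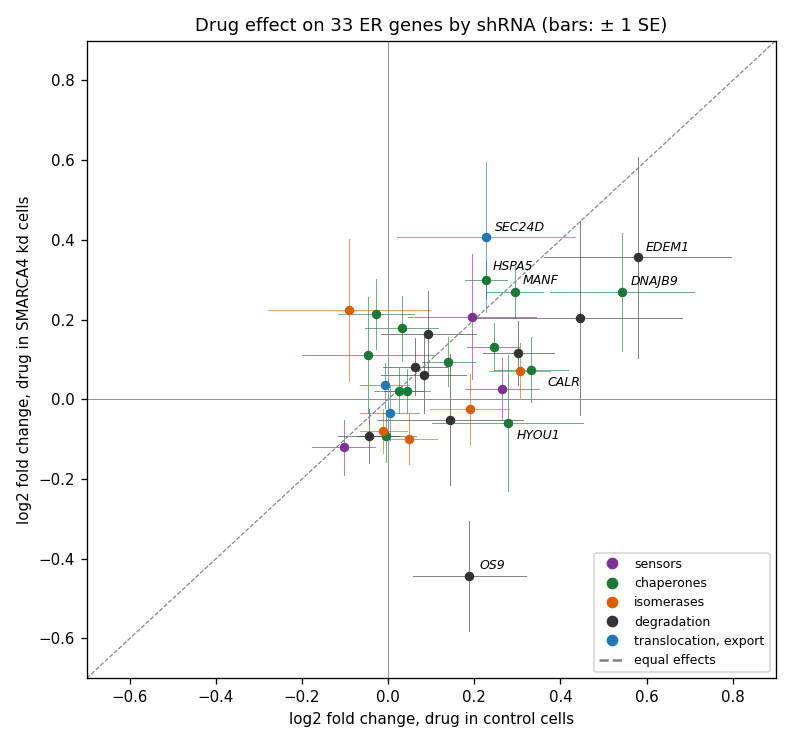
Log2 fold change with drug in control cells (horizontal axis) and in knockdown cells (vertical axis) for the 33 genes, coloured by role, with bars of 1 SE on each side and a dashed line of equal effects. In all, 19 genes are above 0 on both axes and 23 lie below the dashed line, OS9 farthest from it.

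With SMARCA4 knockdown, 2 of the 3 sensor genes changed, in opposite directions. PERK's gene EIF2AK3 rose and IRE1's gene ERN1 fell, in DMSO and under drug, while ATF6 did not pass in either. In DMSO, 12 of the 33 members were called, 5 higher and 7 lower, against 31.3% of all genes (15.1% higher and 16.2% lower). Under drug, 10 were called, 2 higher and 8 lower, against 31.1% of all genes (14.8% higher and 16.3% lower). The members' shares were near those of all genes in DMSO and for the total under drug. The split under drug was 5 higher and 6 lower with library totals, with which all genes gave 2691 higher and 1447 lower, against 1860 higher and 2059 lower with scaling factors. The median log2 fold change of the members was -0.03 in DMSO, against 0.0038 over all genes, and -0.08 under drug, against 0.0018. Libraries did not overlap in 7 members higher and 7 lower in DMSO, against 21.4% and 21.5% of all genes (42.9% in either direction). Under drug this held for 3 higher and 9 lower, against 19.8% and 21.2% (41% in either direction).

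EIF2AK3 stood at 80.5, 81.9 and 64.6 CPM in knockdown cells and 59.3, 57.2 and 53.8 CPM in control cells under drug, and at 77.1, 68.8 and 76.2 CPM in knockdown cells and 50.4, 47.7 and 43.6 CPM in control cells in DMSO. No knockdown library reached down to the control libraries of its pair. It rose by 0.41 ± 0.08 under drug (adjusted p = 0.000220, edgeR) and by 0.65 ± 0.08 in DMSO (adjusted p = 1.5e-07, edgeR) on the log2 scale (SE), and kept both calls in all 20 alternatives.

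ERN1 was a low-count gene, at 7.74, 6.80 and 6.91 CPM in knockdown cells and 10.7, 10.2 and 9.31 CPM in control cells under drug, and at 6.23, 5.86 and 6.34 CPM in knockdown cells and 9.20, 9.54 and 7.64 CPM in control cells in DMSO. Both pairs were apart. ERN1 fell by 0.50 ± 0.16 under drug (adjusted p = 0.0135, edgeR) and by 0.51 ± 0.15 in DMSO (adjusted p = 0.00883, edgeR) on the log2 scale (SE). Its calls were lost without replicate 1 of the control cells under drug (adjusted p = 0.0589, edgeR) and, in DMSO, without replicate 1 of the control cells (adjusted p = 0.0502, edgeR).

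ATF6 stood at 56.4, 56.5 and 57.5 CPM in knockdown cells and 52.3, 51.4 and 55.1 CPM in control cells under drug, and at 63.8, 58.0 and 63.1 CPM in knockdown cells and 54.4, 61.7 and 54.8 CPM in control cells in DMSO. The pair under drug did not overlap and the pair in DMSO did. Neither log2 fold change passed, at 0.10 ± 0.07 under drug and 0.12 ± 0.07 in DMSO (SE, adjusted p = 0.318 and 0.207, edgeR).

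**Figure D3:**
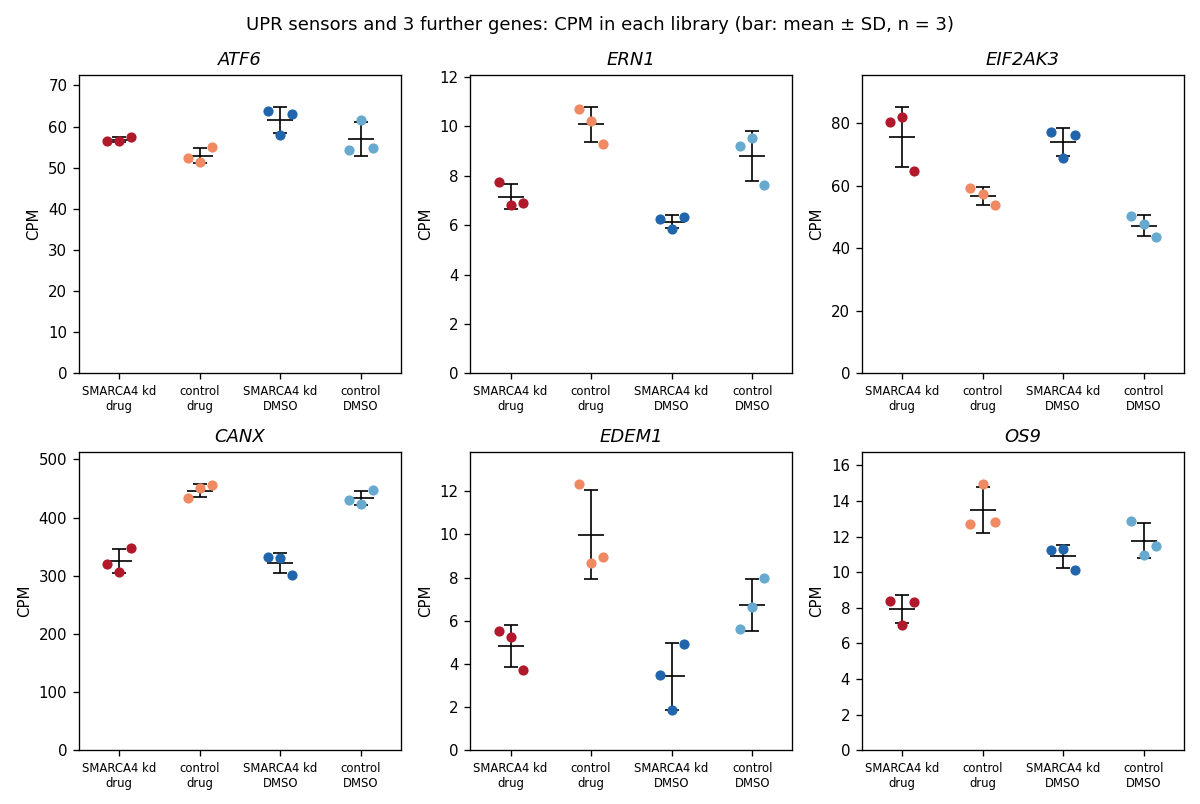
CPM of the 3 sensor genes and of CANX, EDEM1 and OS9 in the 12 libraries, with 1 point for each library and bars for the mean ± SD of 3. EIF2AK3 is higher and ERN1, CANX and EDEM1 are lower in every knockdown library than in the control libraries of the same treatment, and OS9 is so under drug.

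The chaperones called with knockdown were led by CANX (calnexin), the membrane-bound lectin chaperone of new glycoproteins. It stood at 321, 307 and 348 CPM in knockdown cells and 433, 450 and 456 CPM in control cells under drug, and at 332, 331 and 302 CPM in knockdown cells and 430, 423 and 447 CPM in control cells in DMSO. The 2 knockdown groups lay together, well below both control groups. CANX fell by 0.46 ± 0.06 under drug (adjusted p = 7.0e-08, edgeR) and by 0.43 ± 0.05 in DMSO (adjusted p = 1.5e-07, edgeR) on the log2 scale (SE), and kept both calls in all 20 alternatives. Its soluble relative CALR did not pass in either, at -0.09 ± 0.08 under drug and 0.17 ± 0.08 in DMSO (SE).

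DNAJC10 (ERdj5), a DnaJ protein that reduces disulfides of ERAD clients, went the other way. It stood at 61.8, 63.9 and 67.2 CPM in knockdown cells and 53.6, 56.1 and 57.7 CPM in control cells under drug, and at 69.6, 68.1 and 68.2 CPM in knockdown cells and 53.1, 58.1 and 56.9 CPM in control cells in DMSO. The groups were apart in both pairs. DNAJC10 rose by 0.21 ± 0.07 under drug (adjusted p = 0.0210, edgeR) and by 0.29 ± 0.07 in DMSO (adjusted p = 0.000782, edgeR) on the log2 scale (SE). Under drug the call was lost without replicate 3 of the knockdown cells (adjusted p = 0.0888, edgeR) or replicate 1 of the control cells (adjusted p = 0.0934, edgeR).

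A further 3 chaperone genes were called in DMSO and not under drug. SDF2L1, at 137.6, 142 and 135 CPM in knockdown cells against 119, 115 and 121 CPM in control cells in DMSO, rose by 0.22 ± 0.06 (SE, adjusted p = 0.00399, edgeR). DNAJB9, at 7.98, 8.14 and 8.69 CPM in knockdown cells against 6.30, 6.16 and 6.09 CPM in control cells in DMSO, rose by 0.43 ± 0.16 (SE, adjusted p = 0.0380, edgeR). Its call was lost with DESeq2 (adjusted p = 0.0872) and without any of 5 of the 6 libraries compared, the exception being replicate 1 of the knockdown cells. The adjusted p was then 0.0541 and 0.133 without replicate 2 and 3 of the knockdown cells, and 0.0697, 0.0828 and 0.0764 without replicate 1, 2 and 3 of the control cells (edgeR). CRELD2, an ER stress-inducible folding factor, stood at 29.4, 34.1 and 26.7 CPM in knockdown cells against 38.0, 37.1 and 38.0 CPM in control cells in DMSO, with replicate 2 nearest to the control cells. CRELD2 fell by 0.35 ± 0.09 log2 units (SE, adjusted p = 0.00207, edgeR), and its call was lost without the deepest library, replicate 3 of the knockdown cells (adjusted p = 0.0631, edgeR). In the interaction above, none of these 3 genes passed.

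HSPA5 and HSP90B1, the chaperones with the most counts, were not called with knockdown. HSPA5 averaged 923 ± 41.4 CPM in knockdown cells and 860 ± 22.1 CPM in control cells under drug, and 751 ± 11.8 CPM in knockdown cells and 735 ± 20.5 CPM in control cells in DMSO (SD, n = 3 each). Its log2 fold changes were 0.10 ± 0.05 under drug (adjusted p = 0.111, edgeR) and 0.03 ± 0.05 in DMSO (SE, adjusted p = 0.675, edgeR). HSP90B1 averaged 525 ± 37.2 CPM in knockdown cells and 567 ± 28.3 CPM in control cells under drug, and 491 ± 19.8 CPM in knockdown cells and 515 ± 50.4 CPM in control cells in DMSO (SD, n = 3 each). With library totals HSPA5 passed under drug, at a log2 fold change of 0.18 (adjusted p = 0.00355, edgeR), and so did SDF2L1, at 0.19 (adjusted p = 0.0112, edgeR). HSPA5 also passed under drug without replicate 2 of the knockdown cells under drug, with scaling factors kept. MANF had log2 fold changes of -0.06 ± 0.07 under drug and -0.03 ± 0.07 in DMSO (SE).

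Among the isomerases, PDIA6 (P5), which acts with BiP, fell in both pairs. It stood at 151, 154 and 159 CPM in knockdown cells and 187, 184 and 187 CPM in control cells under drug, and at 172, 165 and 154 CPM in knockdown cells and 189, 190 and 182.5 CPM in control cells in DMSO. All knockdown libraries were below all control libraries. PDIA6 fell by 0.26 ± 0.06 under drug (adjusted p = 0.000369, edgeR) and by 0.20 ± 0.05 in DMSO (adjusted p = 0.00524, edgeR) on the log2 scale (SE), and the call in DMSO was lost without replicate 3 of the knockdown cells (adjusted p = 0.0851, edgeR).

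PDIA3 (ERp57), the isomerase that works with calnexin and calreticulin, stood at 183, 215 and 175 CPM in knockdown cells against 229, 230 and 245.5 CPM in control cells under drug, and fell by 0.30 ± 0.06 log2 units (SE, adjusted p = 0.000553, edgeR). In DMSO its libraries did not overlap either, at 203, 200 and 211 CPM in knockdown cells against 242, 216 and 222 CPM in control cells, and the log2 fold change of -0.15 ± 0.06 did not pass (SE, adjusted p = 0.0753, edgeR). PDIA3 did pass in DMSO in a fit of only the groups compared. It also passed there without replicate 2 of the knockdown cells under drug, a library outside that comparison. PDIA4 was called in DMSO, where it rose by 0.30 ± 0.07 (SE, adjusted p = 0.00109, edgeR), at 203, 201 and 228 CPM in knockdown cells against 167, 169 and 177 CPM in control cells, and kept that call in all 20 alternatives. Under drug PDIA4 overlapped, at 247, 227 and 192 CPM in knockdown cells against 229, 201 and 204 CPM in control cells (log2 fold change 0.07 ± 0.07, SE). PDIA5 and P4HB did not pass in either pair, although P4HB did under drug without replicate 3 of the knockdown cells (adjusted p = 0.0399, edgeR). PDIA3 and HSP90B1 have near-identical pseudogenes, and the sources used here do not say how shared reads were counted.

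EDEM1 had the largest fall of the 33 genes with knockdown in both pairs, and had the lowest single count of the list (17). It stood at 5.51, 5.25 and 3.73 CPM in knockdown cells and 12.4, 8.65 and 8.94 CPM in control cells under drug, and at 3.50, 1.85 and 4.92 CPM in knockdown cells and 5.60, 6.64 and 7.997 CPM in control cells in DMSO. The groups did not overlap, though the libraries in DMSO were scattered. EDEM1 fell by 1.06 ± 0.23 under drug (adjusted p = 0.000592, edgeR) and by 0.84 ± 0.23 in DMSO (adjusted p = 0.00597, edgeR) on the log2 scale (SE). Over the 20 alternatives it stayed past the threshold, with log2 fold changes of -1.15 to -0.87 under drug and -1.31 to -0.60 in DMSO.

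With knockdown under drug OS9 fell by 0.76 ± 0.14 log2 units (SE, adjusted p = 8.0e-05, edgeR), and its mean was 7.93 ± 0.767 CPM in knockdown cells and 13.5 ± 1.28 CPM in control cells (SD, n = 3 each). In DMSO its means were 10.9 ± 0.649 CPM in knockdown cells and 11.8 ± 0.996 CPM in control cells (SD, n = 3 each), and the log2 fold change was -0.13 ± 0.13 (SE, adjusted p = 0.467, edgeR). The other 7 ERAD genes had no call in either pair. HERPUD1 was among them, at -0.19 ± 0.08 under drug and -0.0041 ± 0.08 in DMSO on the log2 scale (SE), as were SEL1L and SYVN1, the adaptor and the ubiquitin ligase of 1 complex, the mannosidase-like EDEM2 and EDEM3, and the channel-associated DERL1 and DERL2. Some of these passed under an alternative. EDEM3 passed in DMSO in 7 of 20, with a lowest adjusted p of 0.0313 in a fit of only the groups compared (edgeR), and under drug with library totals (adjusted p = 0.0370, edgeR). HERPUD1 and SYVN1 passed under drug without replicate 3 of the control cells (adjusted p = 0.0341 and 0.0388, edgeR), and DERL1 passed in DMSO without replicate 3 of the knockdown cells (adjusted p = 0.0232, edgeR).

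SEC61B, a subunit of the translocation channel, stood at 223, 224 and 193 CPM in knockdown cells against 266.5, 249 and 240 CPM in control cells under drug. In DMSO it stood at 207, 206.5 and 240 CPM in knockdown cells against 234, 244 and 275 CPM in control cells, where replicate 3 of the knockdown cells overlapped the control cells. SEC61B fell by 0.24 ± 0.07 under drug (adjusted p = 0.00772, edgeR) and by 0.20 ± 0.07 in DMSO (adjusted p = 0.0230, edgeR) on the log2 scale (SE). The call under drug was lost without replicate 3 of the knockdown cells, without replicate 1 of the control cells and with library totals (adjusted p = 0.0789, 0.0622 and 0.0867, edgeR). The call in DMSO was lost without replicate 1 or 2 of the knockdown cells and without replicate 3 of the control cells (adjusted p = 0.115, 0.122 and 0.225, edgeR).

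SSR1, a subunit of the translocon-associated TRAP complex, stood at 134, 138.3 and 131 CPM in knockdown cells and 152, 146 and 154 CPM in control cells under drug, and at 129, 137 and 128 CPM in knockdown cells and 158, 151 and 146 CPM in control cells in DMSO. Neither pair overlapped. SSR1 fell by 0.17 ± 0.06 under drug (adjusted p = 0.0242, edgeR) and by 0.21 ± 0.06 in DMSO (adjusted p = 0.00392, edgeR) on the log2 scale (SE). Under drug its call was lost with library totals (log2 fold change -0.09, adjusted p = 0.265, edgeR), in a fit of only the groups compared (adjusted p = 0.0502, edgeR), without replicate 1 or 3 of the knockdown cells (adjusted p = 0.0786 and 0.0877, edgeR) and without replicate 1 or 3 of the control cells (adjusted p = 0.0760 and 0.0899, edgeR). In DMSO it was lost without replicate 1 of the control cells (adjusted p = 0.0543, edgeR). SEC24D, a coat protein of vesicles that leave the ER, did not pass in any comparison.

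The knockdown comparisons under drug and in DMSO share no library. The members called in both were 2 higher, EIF2AK3 and DNAJC10, and 6 lower, ERN1, CANX, PDIA6, EDEM1, SEC61B and SSR1. These 8 were out of 10 called under drug and 12 called in DMSO, and 0 had opposite calls. The log2 fold change had the same sign in 26 of the 33, and across the 33 genes, which are not independent replicates, Pearson's r between the comparisons was 0.789 and Spearman's rho 0.672. These counts and correlations were not taken over all genes, so the agreement cannot be called particular to the 33. Without replicate 1 of the control cells under drug, 6 members were called under drug instead of 10.

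**Figure D4:**
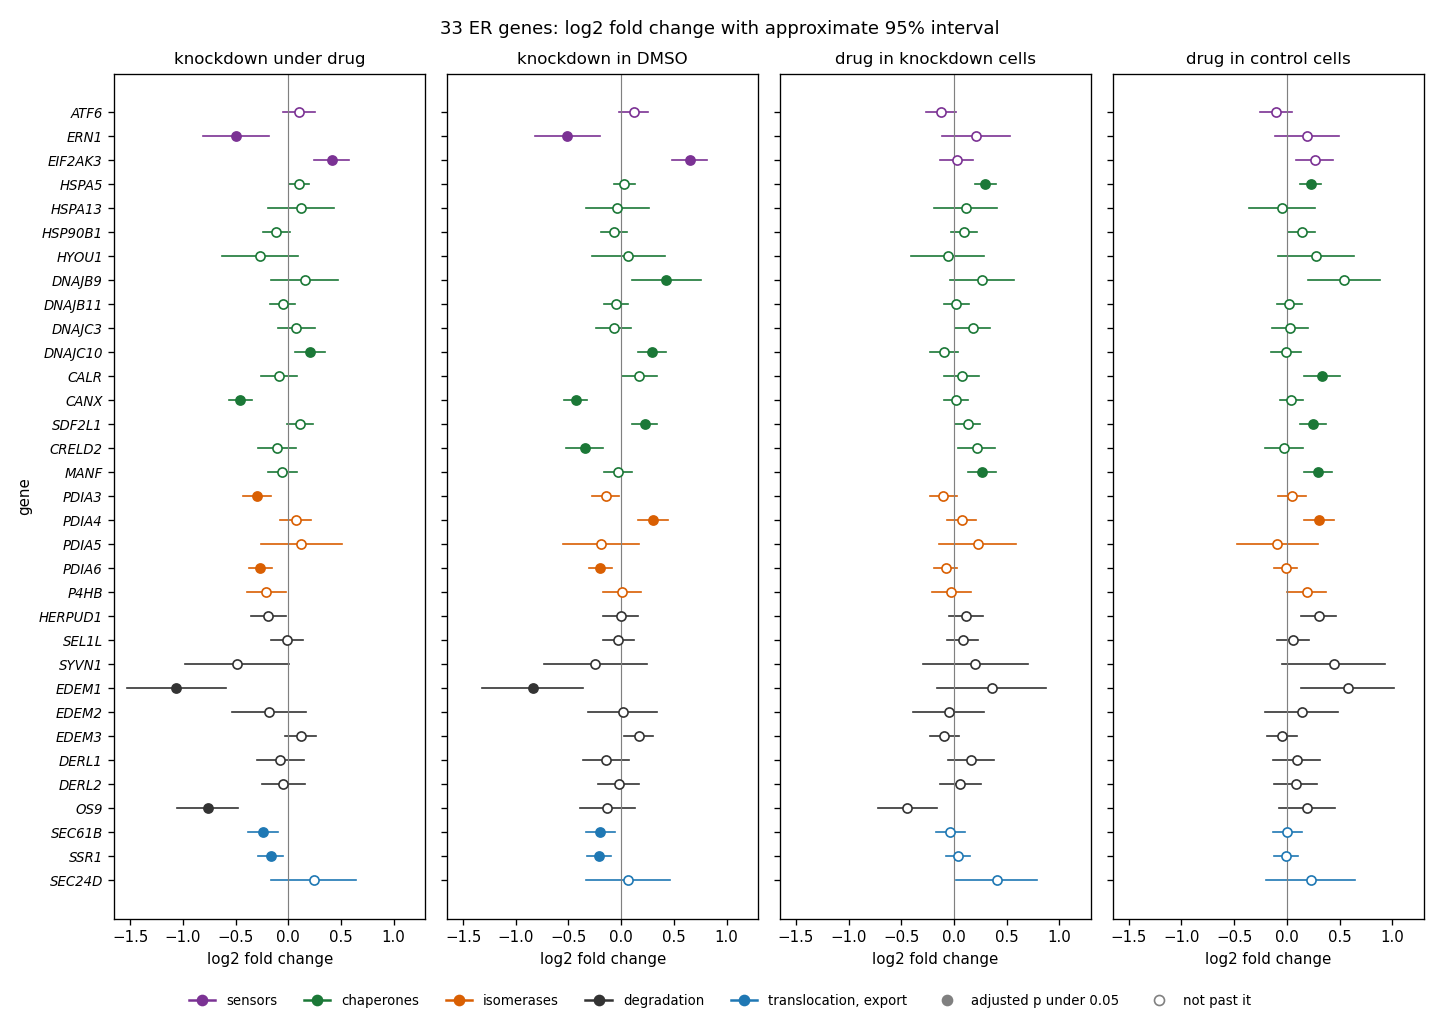
Log2 fold change with its approximate 95% interval for each of the 33 genes in the 4 comparisons, with filled points for an adjusted p under 0.05 (edgeR) and colours for the roles. EIF2AK3 stands out above 0 and EDEM1 and CANX below 0 in both knockdown panels, and HSPA5 and MANF are filled in both drug panels.

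As a share of all counts in a library, the 33 genes together made up 0.394 ± 0.0136% in knockdown cells and 0.394 ± 0.0108% in control cells under drug, and 0.358 ± 0.00515% in knockdown cells and 0.366 ± 0.00865% in control cells in DMSO (SD, n = 3 each). In raw totals every library under drug had a larger share than every library in DMSO, from 0.385% to 0.410% against 0.352% to 0.376%. These shares of all counts leave out the scaling factors used for CPM, and the totals include ribosomal RNA, whose share differed between groups. Under drug the factors were 1.02 to 1.05 in knockdown cells and 0.959 to 0.983 in control cells. Whether the equal means under drug or the separation from DMSO hold with scaling factors was not tested. Without HSPA5 the share was 0.299 ± 0.0123% in knockdown cells and 0.310 ± 0.00791% in control cells under drug, and 0.282 ± 0.00522% in knockdown cells and 0.293 ± 0.00869% in control cells in DMSO (SD, n = 3 each). The groups then overlapped in knockdown cells, and in control cells the lowest library under drug, at 0.304%, was just above the highest in DMSO, at 0.303%. HSPA5 made up 24.1 ± 1.20% of the members' counts in knockdown cells and 21.3 ± 0.146% in control cells under drug, and 21.1 ± 0.548% in knockdown cells and 19.9 ± 0.621% in control cells in DMSO (SD, n = 3 each).

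Outside the 33, 13 genes were listed as transcription factors of the UPR or outputs of the PERK arm. With the drugs, 5 of these rose, 0 fell and 8 did not pass in knockdown cells. In control cells 3 rose, 0 fell and 10 did not pass. PERK activity was not measured, and the pathway behind these changes was not tested. The share of all genes called was 1.29% in each comparison. XBP1, CHAC1 and SESN2 rose in both, and ATF4 and ASNS rose in knockdown cells and did not pass in control cells. In the interaction 0 of the 13 genes passed, against 0.0238% of all genes, so a difference in drug response between the cells was not shown. XBP1 stood at 46.2, 44.5 and 46.9 CPM in knockdown cells under drug against 38.3, 36.8 and 33.6 CPM in DMSO, and at 52.6, 48.8 and 48.3 CPM in control cells under drug against 36.7, 33.2 and 36.5 CPM in DMSO. Both pairs were apart. XBP1 rose by 0.35 ± 0.08 in knockdown cells (adjusted p = 0.00982, edgeR) and by 0.49 ± 0.08 in control cells (adjusted p = 0.000187, edgeR) on the log2 scale (SE). The 3' counts do not tell spliced from unspliced XBP1. In knockdown cells its call was lost without replicate 1 or 3 under drug (adjusted p = 0.0503 and 0.0510, edgeR) or replicate 3 in DMSO (adjusted p = 0.165, edgeR).

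CHAC1, a glutathione-degrading enzyme induced through ATF4, averaged 19.7 ± 1.60 CPM in knockdown cells under drug against 4.88 ± 0.978 CPM in DMSO, and 18.9 ± 0.492 CPM in control cells under drug against 6.57 ± 1.01 CPM in DMSO (SD, n = 3 each). It rose by 2.07 ± 0.14 in knockdown cells (adjusted p = 1.3e-11, edgeR) and by 1.53 ± 0.14 in control cells (adjusted p = 1.2e-08, edgeR) on the log2 scale (SE). ATF4, the factor translated when PERK is active, averaged 555 ± 16.7 CPM in knockdown cells under drug against 437 ± 14.8 CPM in DMSO, and rose by 0.34 ± 0.05 (SE, adjusted p = 0.000118, edgeR). In control cells ATF4 averaged 568 ± 41.8 CPM under drug against 507 ± 17.7 CPM in DMSO and did not pass. DDIT3 (CHOP), a death-promoting factor downstream of ATF4, averaged 6.22 ± 1.15 CPM in knockdown cells under drug against 3.65 ± 0.460 CPM in DMSO, and 5.65 ± 0.315 CPM in control cells under drug against 4.41 ± 1.06 CPM in DMSO, and did not pass in either (adjusted p = 0.0548 in knockdown cells, edgeR). In knockdown cells DDIT3 passed in 5 of 20 alternatives, library totals and the replicate block among them (lowest adjusted p = 0.0247, edgeR).

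With knockdown, 5 of these 13 genes were called under drug, 2 higher and 3 lower, and 7 in DMSO, 2 higher and 5 lower, against 31.1% and 31.3% of all genes. TRIB3, a pseudokinase induced through ATF4 and CHOP, averaged 8.53 ± 1.07 CPM in knockdown cells and 20.2 ± 0.438 CPM in control cells under drug, and 6.84 ± 1.39 CPM in knockdown cells and 16.8 ± 1.04 CPM in control cells in DMSO (SD, n = 3 each). TRIB3 fell by 1.24 ± 0.14 under drug (adjusted p = 1.7e-08, edgeR) and by 1.35 ± 0.14 in DMSO (adjusted p = 2.0e-09, edgeR) on the log2 scale (SE). ATF3, a stress-induced transcription factor, stood at 2.04 CPM or less in the knockdown cells and at 3.60 to 6.33 CPM in the control cells in DMSO, without overlap, and fell by 1.44 ± 0.29 there (SE, adjusted p = 0.000266, edgeR), while its log2 fold change of -0.61 ± 0.28 under drug did not pass (SE, adjusted p = 0.101, edgeR). ATF4 fell by 0.22 ± 0.05 in DMSO (SE, adjusted p = 0.00205, edgeR) and had -0.04 ± 0.05 under drug, not past the threshold. ASNS, asparagine synthetase, rose by 0.37 ± 0.06 under drug (adjusted p = 7.7e-06, edgeR) and by 0.25 ± 0.06 in DMSO (adjusted p = 0.00123, edgeR). XBP1 had log2 fold changes of -0.12 ± 0.08 under drug and 0.02 ± 0.08 in DMSO and did not pass (SE).

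Among 20 further ERAD genes, 6 rose and 0 fell with knockdown under drug, and 5 rose and 1 fell in DMSO. In each pair 30% of the list was called, against 31.1% of all genes under drug and 31.3% in DMSO. By direction, 30% were higher and 0% lower under drug, against 14.8% and 16.3% of all genes. In DMSO 25% were higher and 5% lower, against 15.1% and 16.2% of all genes. UBE2J1, the ubiquitin-conjugating enzyme anchored in the ER membrane, stood at 112, 113 and 118 CPM in knockdown cells and 54.8, 55.8 and 52.2 CPM in control cells under drug, and at 97.1, 93.4 and 104 CPM in knockdown cells and 41.6, 39.7 and 42.5 CPM in control cells in DMSO. All knockdown libraries were far above all control libraries. UBE2J1 rose by 1.08 ± 0.07 under drug (adjusted p = 2.2e-14, edgeR) and by 1.25 ± 0.07 in DMSO (adjusted p = 8.2e-16, edgeR) on the log2 scale (SE). With drug it also rose in control cells, by 0.39 ± 0.07 (SE, adjusted p = 0.00106, edgeR), and in knockdown cells its log2 fold change of 0.22 ± 0.06 did not pass (SE, adjusted p = 0.0782, edgeR).

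Of 36 other ER folding and translocation genes, 3 rose and 9 fell with knockdown under drug, and 2 rose and 9 fell in DMSO. The share of the list called was 33.3% under drug and 30.6% in DMSO, near the 31.1% and 31.3% of all genes. By direction, 8.33% were higher and 25% lower under drug, against 14.8% and 16.3% of all genes. In DMSO 5.56% were higher and 25% lower, against 15.1% and 16.2% of all genes. SPCS3, a signal peptidase subunit, fell by 0.39 ± 0.06 under drug (adjusted p = 1.4e-06, edgeR) and by 0.40 ± 0.05 in DMSO (adjusted p = 8.4e-07, edgeR) on the log2 scale (SE). SEC62, a translocation factor, rose by 0.34 ± 0.05 under drug (adjusted p = 8.4e-06, edgeR) and by 0.28 ± 0.05 in DMSO (adjusted p = 8.5e-05, edgeR). With drug, 1 of the 36 rose in knockdown cells, the luminal protein ERP29 at 0.21 ± 0.05 (SE, adjusted p = 0.0359, edgeR), and 0 were called in control cells. Chaperones of the cytosol were set beside them: of 25 tested, 0 rose and 9 fell with knockdown under drug, 1 rose and 17 fell in DMSO, and 0 were called with drug in either cell type. Of all genes, 16.3% were lower with knockdown under drug and 16.2% in DMSO, and 1.29% were called with drug in each cell type. HSP90AA1, the inducible cytosolic Hsp90, fell by 0.26 ± 0.05 under drug (adjusted p = 6.4e-05, edgeR) and by 0.31 ± 0.05 in DMSO (adjusted p = 4.6e-06, edgeR) on the log2 scale (SE).

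Of 7 markers of plasma cells, in which this machinery is most used, 3 rose, 2 fell and 2 did not pass with knockdown under drug, and 2 rose, 2 fell and 3 did not pass in DMSO, against 31.1% and 31.3% of all genes called. All 7, XBP1 among them, had a row, and their summed level was 537 to 544 CPM in knockdown cells and 677 to 683 CPM in control cells under drug, and 490 to 512 CPM in knockdown cells and 617 to 625 CPM in control cells in DMSO. Within the list SDC1 rose by 2.01 ± 0.11 under drug and 1.96 ± 0.11 in DMSO on the log2 scale (SE). PRDM1 rose by 1.16 ± 0.13 under drug and 1.22 ± 0.13 in DMSO. The immunoglobulin J chain gene, listed as IGJ, fell by 0.75 ± 0.05 under drug and by 0.82 ± 0.05 in DMSO. MZB1 fell by 0.54 ± 0.06 under drug (adjusted p = 1.3e-08, edgeR) and by 0.28 ± 0.06 in DMSO (adjusted p = 0.000288, edgeR). The summed level of the 7 B cell and lymphoma markers was 4193 to 4896 CPM in knockdown cells and 5273 to 5630 CPM in control cells under drug, and 4292 to 4515 CPM in knockdown cells and 4925 to 5761 CPM in control cells in DMSO. Of 5 T and NK cell markers 3 had a row, and their sum was 2.03 to 3.54 CPM in knockdown cells and 17.5 to 21.4 CPM in control cells under drug, and 1.75 to 3.15 CPM in knockdown cells and 18.1 to 19.7 CPM in control cells in DMSO. The part of these markers in the members' changes was not tested.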

How the data were processed

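Per the labels' protocols, the 12 libraries were made with Lexogen QuantSeq, a 3'-end mRNA method, from RNeasy-purified Z-138 RNA. Per the submitters' processing notes, HISAT2, HTSeq, bcl2fastq 2.17.1.14 and the build hg19 were used. The sources used here do not state the annotation, the strand setting or any filter on rows. Reads of a gene and of an overlapping antisense gene may therefore not be told apart. The authors deposited 1 table of raw gene counts, whole numbers without normalization.

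Columns were matched to samples by name, and 1 that names no treatment by elimination (control shRNA under drug, replicate 1). The filterByExpr function (minimum count 10 and total 15, given the 4 groups) removed 1218 genes. Library sizes were scaled with trimmed means of M values (TMM), and counts were fitted over all 12 libraries with 1 coefficient per group in edgeR 4.0.16 (R 4.3.3). Two-sided quasi-likelihood F tests gave p-values for 5 comparisons, each with Benjamini-Hochberg adjustment over the 12602 genes and a threshold of 0.05. The standard error (SE), taken as the size of the log2 fold change over the square root of its F statistic, is approximate, as are the 95% intervals. The code was tested on simulated data with changes larger than those of the members called with drug, so that test does not bear on changes of this size. Replicates of a group differed beyond sampling noise (chi-square per degree of freedom 1.85 to 4.73), so none was merged.

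Alternatives were RLE size factors, library totals, no low-count filter, a filter of 5 CPM in 3 libraries, the replicate block, leaving out ribosomal RNA rows, fitting only the groups compared, DESeq2 1.42.0 and leaving out each library. The 33 members, the other lists and the rule for naming genes were chosen with earlier results of these data known. By that rule, libraries are listed for the sensors, HSPA5, HSP90B1, HERPUD1 and members called in a comparison (up to 8 a direction), and up to 4 genes are named from each other list, with XBP1, ATF4 and DDIT3. SEC24D, DNAJB9, EDEM1, HYOU1 and OS9 with drug were described after their values were seen. RefSeq promoter windows (GRCh38.p14) were searched for exact matches on both strands. Gene positions in hg19 are not given because no annotation of that build was at hand.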

Additional observations from a re-analysis of the deposited data

How the results depend on the processing

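Of 29 member results past the threshold, 13 kept their call in every alternative run, 16 lost it in at least 1 and 0 changed sign. Of 136 not past it, 11 passed in at least 1 alternative and 44 changed sign in at least 1. Members called with drug in control cells numbered 5, and 3 with library totals. Genes of all 12602 called in the interaction numbered 3, with 1 at the filter of 5 CPM and 0 without ribosomal RNA rows. Leaving out each library gave 6 to 11 members with knockdown under drug, 9 to 13 in DMSO, 0 to 5 with drug in control cells and 1 to 2 in knockdown cells. Over all genes it gave 106 to 176 calls with drug in control cells, 100 to 181 in knockdown cells and 1 to 3 in the interaction. With library totals the drug calls in knockdown cells split into 132 higher and 53 lower, against 93 and 69 with scaling factors.

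Of the 44 that changed sign, 2 are given here, and the cause was not tested. HSP90B1 with knockdown in DMSO had a log2 fold change of -0.07. Leaving out each library gave -0.11 to 0.023, the highest without replicate 3 of the control cells. MANF in the interaction was -0.03, with library totals 0.036, and without each library in turn -0.090 to 0.041, above 0 in 5 of these 12 fits.

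The replicate numbers did not pair the libraries: same-numbered libraries of different groups had correlations of -0.116 to 0.0821 in their deviations from group means, and a library's closest match in another group had its own number in 14 of 36 cases. With the replicate block, members called numbered 12 with knockdown in DMSO, 10 under drug, 4 with drug in control cells (SDF2L1 had adjusted p = 0.0518, edgeR), 2 in knockdown cells and 0 in the interaction. Calls over all genes were 3822, 3827, 150, 147 and 2 in that order. Depth limits the 10 members with fewer than 100 counts in some library.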
